A study of Mus musculus with 6 samples.

Results

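Glycolysis is the cytosolic pathway that splits glucose into pyruvate and yields ATP without oxygen. Its enzymes run from the hexokinases, which trap glucose in the cell as a phosphate, through phosphofructokinase, the step that commits the sugar to the pathway, to pyruvate kinase and lactate dehydrogenase. In the kidney the pathway is used most by the distal nephron and the medulla, whereas the proximal tubule burns fatty acids and makes glucose by the reverse route. The 10 enzymes followed here by gene name were Hk1, Hk2, Pfkl, Pfkp, Aldoa, Tpi1, Pgk1, Eno1, Pkm and Ldha. They took 11 rows of the 54532 in the table because Aldoa is listed under 2 identifiers. The second Aldoa row held 0 to 12 counts in a library and was left out of the test, and the other 10 rows all passed the filter on low counts.

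Kidney RNA was sequenced from 6 C57BL/6J mice, 3 WT mice and 3 Trpm2-/- mice, numbered 1, 2 and 3 and 1, 2 and 4. All 6 were given cisplatin at 18 mg/kg and sampled after 72 h, and the labels give their age as 6 to 8 weeks, whereas the study's methods give an older range. No mouse without cisplatin was analysed here, so each difference is one between genotypes after the drug, and the effect of the drug itself was not measured. Per the study's methods the mice were male, the Trpm2-/- allele lacks exons that encode part of the channel's membrane domains, and the WT and Trpm2-/- mice came from different sources, so source and genotype cannot be told apart. Libraries held 14053307 to 17150089 counts on genes, of which the 10 enzymes took 0.498% to 0.525% in WT mice and 0.407% to 0.422% in Trpm2-/- mice. Trpm2 itself had 5, 5 and 27 counts in WT mice and 10, 16 and 20 in Trpm2-/- mice, a number over the whole gene that also covers the exons that the allele keeps and does not check the genotype. The kidney label was checked on its markers. All 10 proximal tubule markers passed the filter on low counts, at a summed level of 8126 to 10442 CPM (counts scaled to library size) in WT mice and 2458 to 4040 CPM in Trpm2-/- mice, and all 10 were lower in Trpm2-/- mice. The genes of the mitochondrial genome took 4.43% to 4.72% of the counts in WT mice and 7.91%, 7.95% and 11.0% in Trpm2-/- mice.

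Of the 10 enzymes 3 were lower in Trpm2-/- kidneys and none was higher. Tpi1, which interconverts the triose phosphates, fell by 42.6%, Pgk1, which makes the first ATP of the payoff phase, fell by 40.0%, and Pfkl, the liver type subunit of phosphofructokinase, fell by 39.3%. In the GRCm38 positions of the table, Tpi1 lies at chr6:124810586-124814296, Pgk1 at chrX:106187100-106203699 and Pfkl at chr10:77986947-78010083. Genes were called at an adjusted p under 0.05 (edgeR's quasi-likelihood test, Benjamini-Hochberg over all 15816 genes tested). At this threshold 7.28% of all genes were lower and 4.74% were higher in Trpm2-/- mice. By the threshold of the study's methods, an absolute log2 fold change above 1 with an unadjusted p under 0.05, 0 of the 10 enzymes were called, against 4.10% of all genes lower and 3.50% higher. The log2 fold change (Trpm2-/- minus WT) was below 0 for 8 enzymes and above 0 for 2, with a median of -0.33, where the median of all genes was 0.02. In 6 enzymes every Trpm2-/- mouse lay below every WT mouse, which held for 16.8% of all genes, and in 0 enzymes every Trpm2-/- mouse lay above, which held for 16.7%. Without the genes of the mitochondrial genome the same 3 enzymes were called lower, Tpi1 (log2 fold change -0.79, adjusted p = 0.00802), Pgk1 (-0.72, 0.0203) and Pfkl (-0.71, 0.0413). In whole kidney RNA, fewer cells of a type and less RNA per cell cannot be told apart. What part the lower proximal tubule markers and the mitochondrial share have in these differences was not tested.

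The levels of the 10 enzymes, compared with each other per length in FPKM (fragments scaled to gene length and library size), spanned more than 2 orders of magnitude. Aldoa was the most abundant at 383 ± 27.1 FPKM (SD, n = 3) in WT mice. Ldha, Tpi1, Eno1 and Pgk1 followed at 219 ± 5.66, 211 ± 18.8, 210 ± 13.05 and 208 ± 6.82 FPKM. Ldha lay above Eno1 and Pgk1 in every WT mouse, whereas its order with Tpi1 varied between mice. Differences between enzymes were not tested. Pkm stood at 73.5 ± 2.88 FPKM, Hk1 at 11.0 ± 1.42, Pfkl at 8.96 ± 1.71 and Pfkp at 5.77 ± 0.375, and Hk2 was lowest at 1.25 ± 0.672. Among these 10 genes the hexokinases and phosphofructokinases had the least RNA. In Trpm2-/- mice Aldoa stayed first at 312 ± 26.6 FPKM, Ldha and Eno1 came next at 170 ± 13.5 and 166 ± 9.89, and Pgk1 and Tpi1 dropped behind them at 126 ± 22.7 and 122 ± 8.80. At the low end Pfkp, at 6.50 ± 1.197 FPKM, stood above Pfkl, at 5.48 ± 1.13, in each Trpm2-/- mouse, although the spreads over mice overlap.

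**Figure D1:**
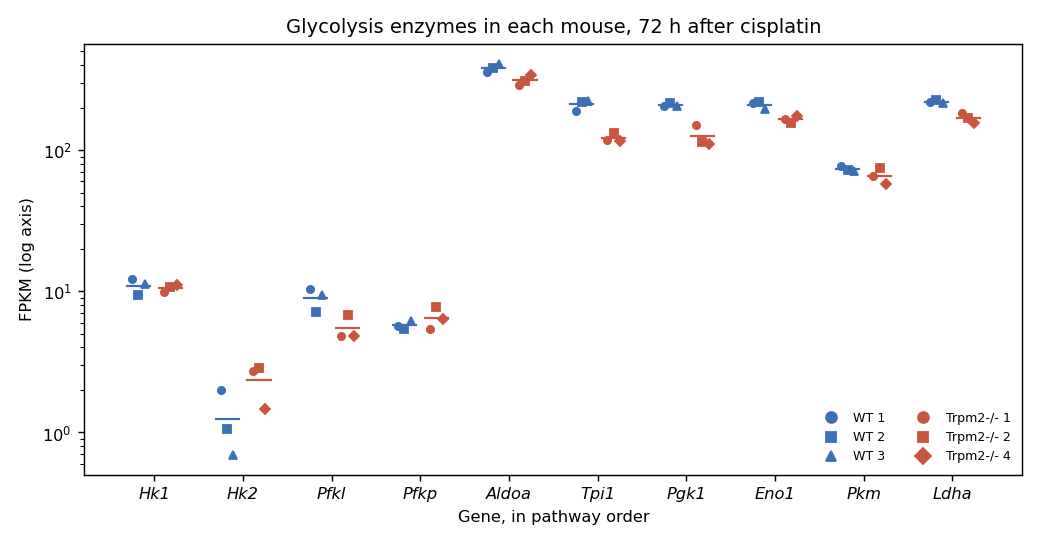
FPKM (log axis) of the 10 enzymes in each of the 3 WT mice (blue) and 3 Trpm2-/- mice (red), with the mean of each genotype as a line. For Pfkl, Aldoa, Tpi1, Pgk1, Eno1 and Ldha all red points lie below all blue points, and for Hk1, Hk2, Pfkp and Pkm the points overlap.

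Summed over the 10 enzymes, the level was 1289.6, 1358.6 and 1346.6 FPKM in WT mice and 997, 983 and 982 FPKM in Trpm2-/- mice, a ratio of means of 0.741. The genotypes did not overlap, and each spread, 36.8 FPKM in WT mice and 8.74 FPKM in Trpm2-/- mice, was small beside the difference of the means. The sum is given without a test. Tpi1 made up 15.8% ± 1.02 of it in WT mice and 12.4% ± 0.937 in Trpm2-/- mice, and Pgk1 15.6% ± 0.406 and 12.7% ± 2.18. The share of Aldoa was 28.7% ± 1.53 and 31.7% ± 2.93, which overlapped.

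The hexokinases catalyse the entry of glucose. Hk1, the constitutive form, had 119, 92.0 and 110 CPM in WT mice and 96.2, 105 and 106 CPM in Trpm2-/- mice. Its values overlapped, with a log2 fold change of -0.06 (95% confidence interval -0.37 to 0.24, adjusted p = 0.808). Hk2, the inducible form, had 13.6, 7.20 and 4.72 CPM in WT mice and 18.5, 19.5 and 9.84 CPM in Trpm2-/- mice. Trpm2-/- mice 1 and 2 lay above every WT mouse, but Trpm2-/- mouse 4 lay below WT mouse 1. The log2 fold change of Hk2 was 0.91 ± 0.39 (SE), with an adjusted p of 0.158 by edgeR. In 20 of 22 other settings it was not called either. It passed the threshold without WT mouse 1 (1.41, adjusted p = 0.0429) and without the filter on low counts. The latter fit left its log2 fold change nearly unchanged (0.89, adjusted p = 0.00309). Hkdc1, a hexokinase of the same gene cluster as Hk1, had 6.04, 8.22 and 4.05 CPM in WT mice and 16.6, 15.9 and 12.9 CPM in Trpm2-/- mice. It was higher in Trpm2-/- mice with no overlap (log2 fold change 1.31 ± 0.27, adjusted p = 0.0145), though not without WT mouse 3, when 0 of the other glycolysis genes were called higher.

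Phosphofructokinase is a tetramer of liver, muscle and platelet type subunits. Pfkl had 79.4, 54.0 and 71.8 CPM in WT mice and 36.7, 51.7 and 36.3 CPM in Trpm2-/- mice. WT mouse 2 and Trpm2-/- mouse 2 were close, and the other mice of each genotype lay further apart. Its log2 fold change was -0.72 ± 0.19 (adjusted p = 0.0384). This call was the least secure of the 3, since it was lost in 8 of 22 other settings, among them those without WT mouse 1 (adjusted p = 0.108), WT mouse 3 (0.138), Trpm2-/- mouse 1 (0.107) or Trpm2-/- mouse 4 (0.0916). Pfkm, the muscle type, had 29.4, 25.1 and 25.5 CPM in WT mice and 15.4, 12.4 and 18.2 CPM in Trpm2-/- mice. It was lower as well, with no overlap (log2 fold change -0.80 ± 0.18, adjusted p = 0.0202). Pfkp, the platelet type, had 87.0, 83.4 and 95.03 CPM in WT mice and 82.1, 119 and 95.6 CPM in Trpm2-/- mice, a log2 fold change of 0.16 with an interval of -0.19 to 0.51 (adjusted p = 0.542). It was 0.0050 without Trpm2-/- mouse 2 and 0.28 without Trpm2-/- mouse 1.

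The next enzymes split the hexose and sort the trioses. Aldoa, the ubiquitous aldolase, had 1183, 1270.0 and 1370.3 CPM in WT mice and 952, 1024 and 1117 CPM in Trpm2-/- mice. All Trpm2-/- mice lay below all WT mice, but the log2 fold change of -0.31 ± 0.15 did not pass (adjusted p = 0.217). Tpi1 had 595, 690.2 and 708 CPM in WT mice and 369, 415 and 359 CPM in Trpm2-/- mice. The lowest WT mouse stood well above the highest Trpm2-/- mouse, and the log2 fold change was -0.80 ± 0.14 (interval -1.12 to -0.48, adjusted p = 0.00829). Without WT mouse 3 the adjusted p was 0.0523 at a log2 fold change of -0.76.

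Gapdh, which oxidizes the triose phosphate and is often used as a reference gene, had only 23.6, 23.0 and 20.9 CPM in WT mice and 12.7, 199.70 and 98.6 CPM in Trpm2-/- mice. Trpm2-/- mouse 1 lay below the WT mice and Trpm2-/- mice 2 and 4 lay far above them. The log2 fold change of 2.20 ± 0.70 did not pass (adjusted p = 0.0710). Of the 75-base windows of its longest transcript, of 3289 bases, 22.8% occurred also in transcripts of 114 other genes. Together these held 920 to 1491 counts, against 340 to 383 on Gapdh in WT mice and 207 to 2925 in Trpm2-/- mice. Peli2, with 0.467% of the windows, held 323 to 585 of the counts on other genes. How reads that match several genes were counted is not given in the sources used here, so the level of Gapdh is uncertain, as are those of the enzymes below that share windows.

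Pgk1, on chromosome X, had 522, 553 and 525 CPM in WT mice and 387, 292 and 281 CPM in Trpm2-/- mice. The WT mice were close together, and Trpm2-/- mouse 1 was nearest to them. Its log2 fold change was -0.74 ± 0.16 (interval -1.09 to -0.38, adjusted p = 0.0180), and it missed the threshold without WT mouse 2 (adjusted p = 0.0829) and without WT mouse 3 (0.0744). For Pgk1 67.5% of the 75-base windows were shared with 4 other genes, which together held 8 to 36 counts against 4276 to 8612 on Pgk1. Bpgm, a mutase that draws on the same substrate as Pgk1, was lower (log2 fold change -0.48 ± 0.13, adjusted p = 0.0432).

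None of the 3 enzymes followed at the last steps, Eno1, Pkm and Ldha, was called. Eno1, the ubiquitous enolase, had 1314, 1353 and 1204 CPM in WT mice and 1021, 956 and 1064 CPM in Trpm2-/- mice, with no overlap. Its log2 fold change was -0.35 ± 0.14 (adjusted p = 0.149). Of its windows 65.4% were shared with 6 other genes, which together held 213 to 541 counts, mostly on Eno1b and Gm4735. Ldha, which reduces pyruvate to lactate, had 825, 853 and 814 CPM in WT mice and 691, 639 and 585 CPM in Trpm2-/- mice, again with no overlap. Its log2 fold change was -0.38 ± 0.14 (interval -0.69 to -0.07, adjusted p = 0.108 by edgeR and 0.0381 by DESeq2). Pkm, the pyruvate kinase of most tissues outside the liver, had 437, 415 and 408 CPM in WT mice and 373, 427 and 326 CPM in Trpm2-/- mice. The values overlapped (log2 fold change -0.16, interval -0.49 to 0.16, adjusted p = 0.502), and the log2 fold change was -0.27 without Trpm2-/- mouse 2 and -0.06 without Trpm2-/- mouse 4. Pkm has M1 and M2 splice forms, which a count per gene does not separate.

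**Figure D2:**
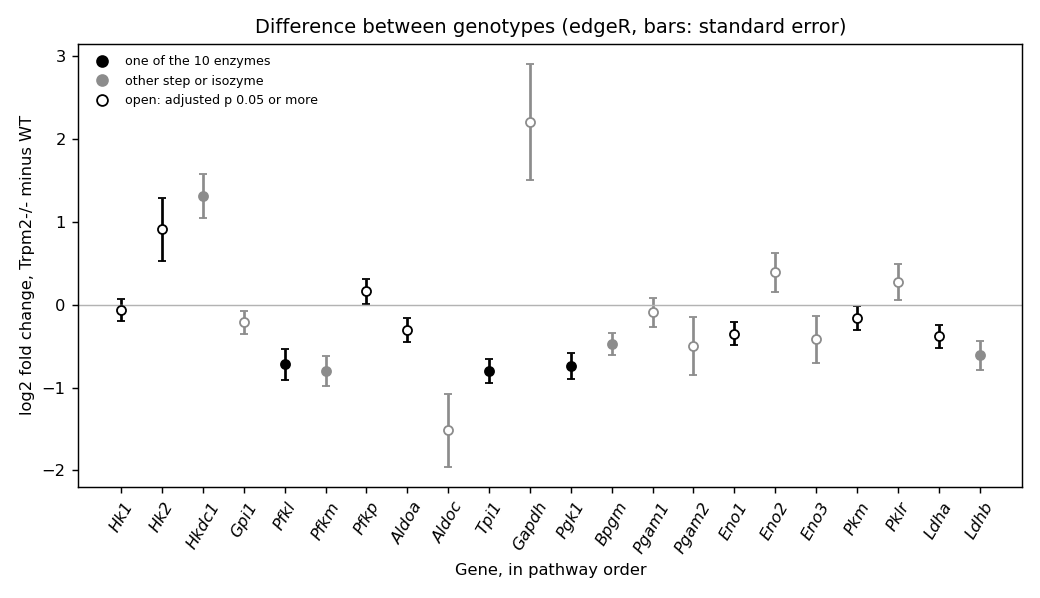
log2 fold change (Trpm2-/- minus WT) with its standard error, from counts, for the 10 enzymes (black) and the other tested genes of glycolysis (grey), in the order of the pathway. Filled points passed an adjusted p under 0.05, and of these Hkdc1 lies above 0 and Pfkl, Pfkm, Tpi1, Pgk1, Bpgm and Ldhb lie below it.

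Of 13 other genes of glycolysis 12 were tested, of which 1 rose and 3 fell, with a median log2 fold change of -0.31. Without WT mouse 3, 0 rose and 0 fell. The 3 that fell were Pfkm, Bpgm and Ldhb, the lactate dehydrogenase subunit of aerobic tissues (-0.61 ± 0.17, adjusted p = 0.0497). Aldoc had a log2 fold change of -1.52 ± 0.44 (adjusted p = 0.0521), Pgam2 -0.50, Eno3 -0.42, Gpi1 -0.21 and Pgam1 -0.09. Eno2 had 0.39 and Pklr, the pyruvate kinase of liver and proximal tubule, had 0.27, and none of these 7 was called. Hk3 was too low to be tested.

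Ratios between isozymes within a mouse do not depend on the scaling of libraries. The FPKM ratio of Pfkp to Pfkl was below 1 in all 3 WT mice and above 1 in all 3 Trpm2-/- mice, with geometric means of 0.652 and 1.19. On the log2 scale it was -0.87, -0.38 and -0.60 in WT mice and 0.16, 0.20 and 0.39 in Trpm2-/- mice, a difference of 0.87. The exact permutation test, two-sided, gave p = 0.1, which is the smallest that 3 against 3 mice allow, and 0.267 when adjusted over the 4 ratios. The level of this ratio depends on the gene lengths used by the table, 13401 bases for Pfkp and 6675 for Pfkl. In the difference between genotypes these lengths cancel, but a bias by length that differs between libraries would not. With the gene length correction the log2 fold change was -0.09 for Pfkp and -0.79 for Pfkl. The ratio itself was not computed with that correction. The ratios of Hk2 to Hk1 (difference 1.04, exact p = 0.2), Ldha to Ldhb (0.22, exact p = 0.2) and Pkm to Pklr (-0.44, exact p = 0.3) overlapped between the genotypes. With each mouse left out, the difference lay between 0.66 (without WT mouse 3) and 1.38 (without Trpm2-/- mouse 4) for Hk2 to Hk1, between 0.13 (without Trpm2-/- mouse 2) and 0.36 (without Trpm2-/- mouse 4) for Ldha to Ldhb, and between -0.69 (without Trpm2-/- mouse 2) and -0.26 (without Trpm2-/- mouse 1) for Pkm to Pklr. With 3 mice a group none of the 4 could reach a p under 0.05.

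**Figure D3:**
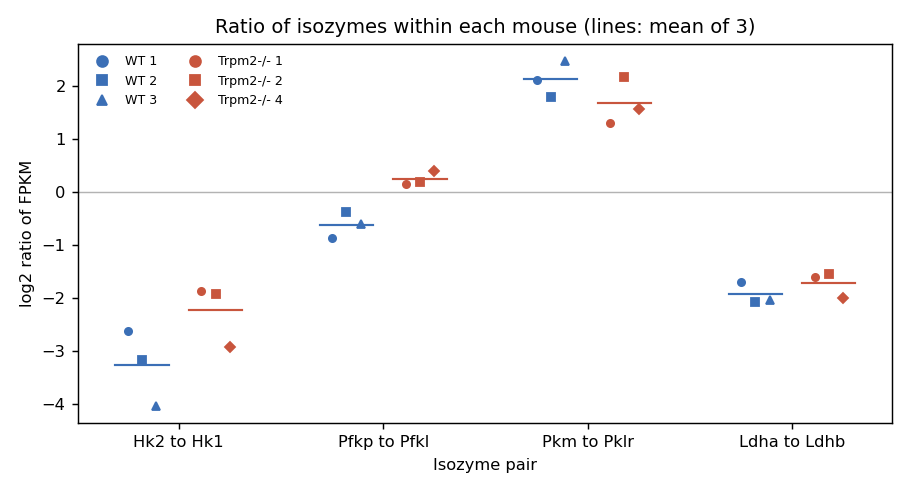
log2 ratio of the FPKM of a pair of isozymes in each WT mouse (blue) and each Trpm2-/- mouse (red), with means as lines. The ratio of Pfkp to Pfkl is higher in every Trpm2-/- mouse than in any WT mouse, and the other 3 pairs overlap.

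The genes around glycolysis were read from the same test. Among 11 regulators, the PFKFB, PDK and PDP families and Tigar, 3 fell and 0 rose. The 3 were kinases that switch off pyruvate dehydrogenase, Pdk2 (log2 fold change -1.42 ± 0.17, adjusted p = 0.00182), Pdk3 (-0.71 ± 0.14, 0.0129) and Pdk1 (-0.76 ± 0.17, 0.0224). Their sister Pdk4 had 175, 160 and 218 CPM in WT mice and 359, 264 and 235 CPM in Trpm2-/- mice, which did not overlap but missed the threshold (log2 fold change 0.63, adjusted p = 0.0576). Of the 5 genes of the pyruvate dehydrogenase complex Dld fell (-0.57 ± 0.14, adjusted p = 0.0324), and 4 of the 5 did not overlap between genotypes, all lower in Trpm2-/- mice. Of 11 transporters of glucose, lactate and pyruvate, 3 fell and 0 rose. They were the sodium-glucose transporters Slc5a1 (-1.19 ± 0.17, adjusted p = 0.00374) and Slc5a2 (-1.24 ± 0.18, 0.00402) and Mpc2, a subunit of the mitochondrial pyruvate carrier (-0.94 ± 0.14, 0.00470). Mpc1, its partner subunit, had -0.51 (adjusted p = 0.0513).

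Of the 7 genes of gluconeogenesis, the reverse route, 4 fell and 0 rose, and the median log2 fold change was -1.41. Fbp1, which opposes phosphofructokinase, had the smallest p (-1.98 ± 0.19, adjusted p = 0.00126), followed by Slc37a4 (-1.55 ± 0.17, 0.00152), Pck1 (-1.73 ± 0.21, 0.00221) and Pcx (-0.97 ± 0.20, 0.0157). In the pentose phosphate pathway, which branches off after hexokinase, 0 of 7 genes passed in either direction, with a median of 0.03.

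**Figure D4:**
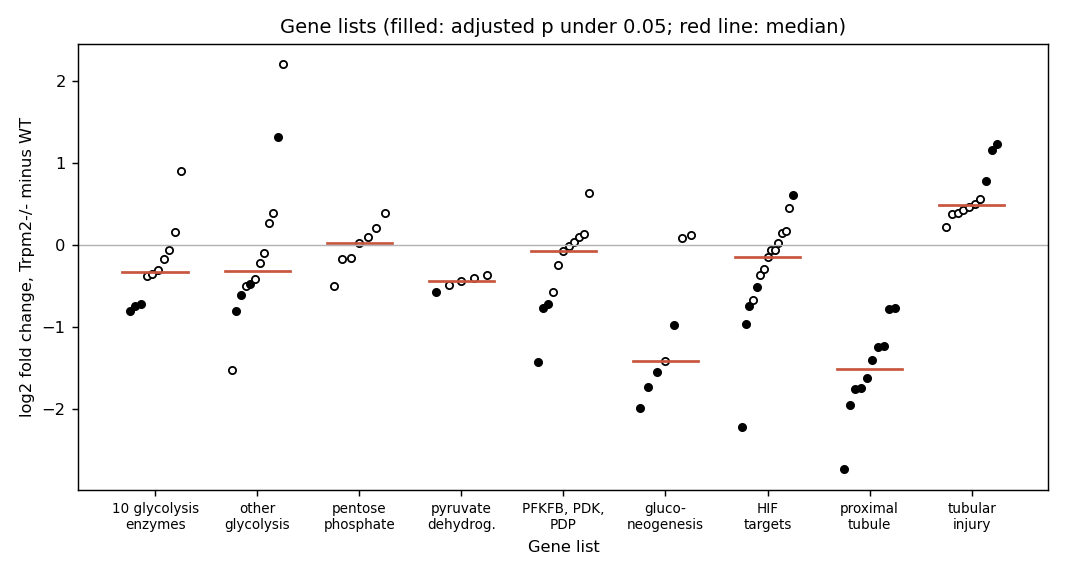
log2 fold change (Trpm2-/- minus WT) of each tested gene in 9 lists, filled where the adjusted p was under 0.05, with the list's median as a red line. The 10 glycolysis enzymes have a median of -0.33, gluconeogenesis -1.41, the proximal tubule markers -1.51 and the tubular injury genes 0.49.

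HIF, the oxygen-sensing transcription factor, and Myc are known to drive many genes of glycolysis. Of 15 further HIF targets 1 rose and 4 fell. Kdm3a, a histone demethylase, was higher (0.61 ± 0.13, adjusted p = 0.0198), and Car9, a carbonic anhydrase, was lower (-2.21 ± 0.32, 0.00380), as were Ndrg1 (-0.96 ± 0.21, 0.0195), Higd1a (-0.74 ± 0.18, 0.0298) and P4ha2 (-0.51 ± 0.14, 0.0405). Of 10 genes of transcription factors of metabolism and their partners, Myc rose, with 45.3, 47.9 and 48.6 CPM in WT mice and 68.2, 74.6 and 80.0 CPM in Trpm2-/- mice (0.65 ± 0.12, adjusted p = 0.00981), and 0 fell. Hif1a had a log2 fold change of 0.06 (adjusted p = 0.880).

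The motif ACGTG, a form of the core of the HIF response element, was searched in the 250 bases before each RefSeq start (GRCm38.p6). Both strands were read, and overlapping matches on the 2 strands count separately. The form GCGTG was not searched, so a gene without a match can still hold that form. All 10 genes had an entry, with 17 promoters in all. ACGTG stood in 6 of the 17, from 5 of the 10 genes (Hk2, Aldoa, Pgk1, Pkm and Ldha). Over all genes it stood in 16.6% of all 32851 promoters and 18.5% of all genes with a promoter entry. The 2 Aldoa promoters that hold it overlap and share 1 site. By gene, the motif stood in 3 of 13 other glycolysis genes, 2 of 7 of gluconeogenesis and 10 of 13 HIF targets with an entry. Genes with several promoter entries have more chances to hold the motif. Of the 3 enzymes that fell, Pgk1 held ACGTG and Tpi1 and Pfkl did not, and Hk1, Pfkp and Eno1 held no ACGTG either. A match is a description of the letters and not of binding. The promoters of Pgk1, a called gene with a pair of matches, Ldha, with the most matches, and Hk2, the enzyme with the highest log2 fold change, are shown with the motif in capitals, 5′ to 3′ on the strand of the gene. They lie at chrX:106186850-106187099 (plus strand), chr7:46845554-46845803 (plus) and chr6:82774455-82774704 (minus).
Pgk1: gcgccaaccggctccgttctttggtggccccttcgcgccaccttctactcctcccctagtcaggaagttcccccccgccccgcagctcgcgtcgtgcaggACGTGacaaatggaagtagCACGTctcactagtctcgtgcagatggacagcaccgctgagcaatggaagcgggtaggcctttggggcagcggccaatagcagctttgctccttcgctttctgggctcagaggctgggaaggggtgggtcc
Ldha: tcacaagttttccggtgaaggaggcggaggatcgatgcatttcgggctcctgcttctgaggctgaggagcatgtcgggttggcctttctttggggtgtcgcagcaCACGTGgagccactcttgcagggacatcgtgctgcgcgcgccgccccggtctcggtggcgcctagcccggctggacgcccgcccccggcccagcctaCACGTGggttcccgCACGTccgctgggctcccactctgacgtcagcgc
Hk2: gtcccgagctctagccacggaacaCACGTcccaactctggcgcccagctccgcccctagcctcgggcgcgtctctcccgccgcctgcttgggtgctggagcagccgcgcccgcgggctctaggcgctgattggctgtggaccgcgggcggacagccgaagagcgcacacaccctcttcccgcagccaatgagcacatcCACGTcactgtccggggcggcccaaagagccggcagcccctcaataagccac
In Pgk1 the matches begin 150 and 131 bases before the start, the first on the plus and the other on the minus strand. The 5 matches of Ldha include a pair of palindromes that are read on both strands.

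Markers of cell types were read beside the enzymes. All 10 proximal tubule markers fell, with a median of -1.51. The 4 with the smallest p were Slc34a1 (-2.73 ± 0.40, adjusted p = 0.00391), Cubn (-1.39 ± 0.21, 0.00401), Slc5a2 and Kap (-1.62 ± 0.25, 0.00475). Of 9 markers of the distal nephron, 3 fell and 0 rose (Aqp2 -1.02 ± 0.17, Umod -1.97 ± 0.50 and Aqp3 -0.47 ± 0.13). Their summed level ranged from 2438 to 3454 CPM in WT mice and from 1037 to 1875 CPM in Trpm2-/- mice. Of 10 genes of tubular injury 3 rose and 0 fell, Vim (1.23 ± 0.16, adjusted p = 0.00261), Sox9 (1.16 ± 0.23, 0.0115) and Krt20 (0.79 ± 0.17, 0.0189). Among 11 myeloid markers C1qa fell (-2.03 ± 0.54, adjusted p = 0.0401) although its values overlapped, and 0 rose. Of the 11, 8 had a log2 fold change below 0 and 3 above 0. In 2 of the 11 every Trpm2-/- mouse lay above every WT mouse, and in 0 every one lay below. Over all genes these shares were 16.7% and 16.8%. Further, 0 of 7 endothelial and 0 of 6 tested fibroblast markers passed in either direction. The 5 erythrocyte genes were too low to be tested, at a summed level of 0.0623 to 0.551 CPM.

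The 3 calls were checked under 22 other settings. Tpi1 was called in 20 of them, Pgk1 in 17 and Pfkl in 14, and each kept a log2 fold change below 0 in all 22. Without WT mouse 3 none of the 3 was called, with log2 fold changes of -0.76 for Tpi1, -0.75 for Pgk1 and -0.69 for Pfkl. Of the 75-base windows, 2.48% of Tpi1, 0% of Pfkl and 67.5% of Pgk1 were shared with other genes. Tpi-rs11, which shares windows with Tpi1, held 136, 134 and 118 counts in WT mice and 62, 50 and 27 in Trpm2-/- mice. What part reads that match copies have in these differences was not tested.

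**Figure D5:**
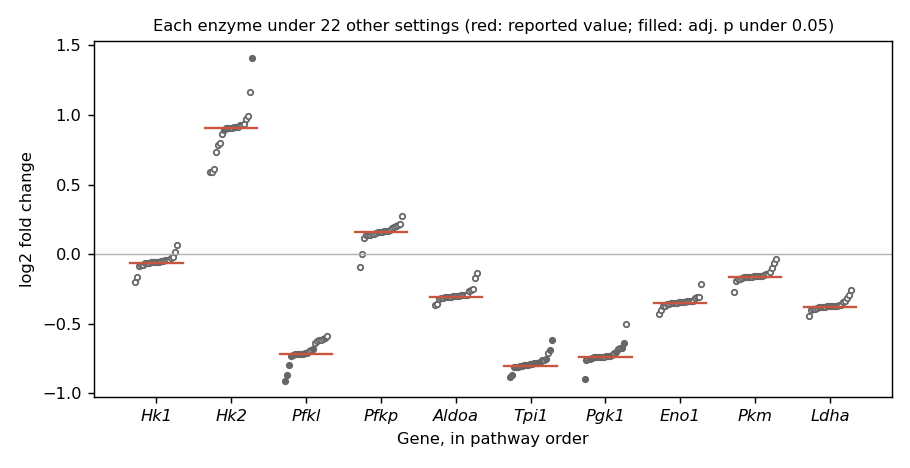
log2 fold change (Trpm2-/- minus WT) of each enzyme under 22 other settings of the test (points, filled where the adjusted p was under 0.05), with the reported value as a red line. Tpi1, Pgk1 and Pfkl stay below 0 throughout, as do Aldoa, Eno1, Pkm and Ldha, and Hk1 and Pfkp cross 0.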

How the data were processed

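The 10 enzymes and all gene lists were chosen with earlier results of these data known. The authors deposited whole-number read counts per gene and FPKM values, scaled by the authors to gene length and a library size. The labels' processing notes name HISAT2, StringTie and mm9, whereas the positions in the tables equal GENCODE M21 (GRCm38) for 53499 of 54409 shared genes. The strandedness of the counting is not given in the sources used here. Counts were tested with edgeR 4.0.16 in R 4.3.3 (TMM, default filterByExpr, quasi-likelihood test on genotype only, two-sided, Benjamini-Hochberg over 15816 genes). Standard errors were derived from the log2 fold change and the F statistic of its test. CPM use TMM-scaled library sizes. The library size implied by the FPKM values did not follow the total counts. WT mouse 2 held 16775965 counts and WT mouse 1 held 15991951, but the implied size was smaller in WT mouse 2. Across libraries the implied size tracked the TMM-scaled size, so the FPKM values are not a check on that scaling. Isozyme ratios were compared by exact permutation tests over mice. Alternatives used limma 3.58.1 and DESeq2 1.42.0. Transcripts of GENCODE M21 gave the 75-base windows shared between genes. The fits were tested on simulated data. The depth was 14053307 to 17150089 counts. Nothing in the labels says how the mice were housed or whether they shared a litter. With 3 mice a group, the edgeR p-values judge each difference against the spread between these mice. That spread is estimated in part from all genes.

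Named genes were all 10 enzymes, every tested gene of the other glycolysis list, and up to 4 genes of each other list with the smallest p. P4ha2, Hif1a, Trpm2, Tpi-rs11, Eno1b, Gm4735 and Peli2 were named beside them after their values were seen. Other settings were another normalization, filter, gene set, test or unit, counts of copies added, GC content and gene length corrections, a block for the replicate number, and each mouse left out. Those of GC content, gene length, all genes sharing windows, the summed level and the block for ratios were chosen after seeing the data. Some genes and 1 isozyme ratio that these rules cover are not reported here.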

Additional observations from a re-analysis of the deposited data

How the results depend on the processing

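The count of enzymes called higher was 0 and became 1 (Hk2) without the filter on low counts, and ranged from 0 to 1 when each mouse was left out. The count called lower was 3. It became 4 with the DESeq2 Wald test, which added Ldha. With limma on FPKM at a mean of at least 1 it was 2, where Pfkl was lost, and with the gene length correction it was also 2. It became 1 with limma on log2(FPKM + 1) without a filter, where only Tpi1 was left, and ranged from 0 to 3 with each mouse left out. With a replicate block it was 0 (adjusted p 0.0723 for Tpi1, 0.0991 for Pgk1 and 0.211 for Pfkl). The numbers mark different mice, and only pairs 1 and 2 exist. Their deviations correlated at 0.0641 and -0.012, which cannot show whether mice of the same number were handled together. The block leaves 1 residual degree of freedom, and WT mouse 3 and Trpm2-/- mouse 4 drop out of the contrast. As mean differences within these pairs, the block left the 4 isozyme ratios with the same sign.

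The direction of Hk1 reversed to 0.0659 with the GC content correction and lay between -0.163 and 0.0147 (without WT mouse 1) with each mouse left out, and that of Pfkp reversed to -0.0918 with the gene length correction. The median log2 fold change of the 10 enzymes ranged from -0.35 to -0.19 over the 22 settings, the median of all genes from -0.02 to 0.08, and the ratio of the summed FPKM from 0.730 to 0.749 over 7. Of the other glycolysis genes, 0 to 2 were called higher and 0 to 5 lower. Pgk1 also lost its call with the gene length correction (-0.50, adjusted p = 0.0904). The cause of these changes was not tested. Hk2, at 77 to 302 counts, is the shallowest of the 10, and its standard error of 0.39 exceeds that of every other enzyme.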
